A study of Mus musculus with 2 samples.

Results

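Autophagy and mitophagy were followed through 43 genes in the gastrocnemius, the large calf muscle, of young mice. The genes were taken as a list of names, with no limit on their measured values. Earlier results of these data were known when the list was chosen. The genes were found by symbol among the 55536 named genes of the deposited gene tables. All 43 were matched. The study sequenced total RNA from female mice of the hybrid strain B6CASTF1/J at an age of 10 days, with 1 group of 2 libraries, biological replicates 1 and 2, each made from 300 ng of RNA. Both libraries carry the same genotype, age and sex, received ERCC spike-in RNAs, and come from separate biosamples under a shared donor label, which does not say whether each is a single animal. There is no treatment or second genotype, so the questions are which of these genes the muscle expressed, at what level, through which transcript forms, and how far the libraries differed.

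Autophagy is the route by which a cell encloses its own proteins and organelles in a membrane sac, the autophagosome, and delivers them to the lysosome. The ULK kinase complex starts the process, a PI3-kinase complex marks the membrane with the lipid PI3P, and ubiquitin-like conjugation enzymes attach LC3 and GABARAP proteins to the growing membrane, where they bind cargo receptors. In muscle the pathway removes worn mitochondria (mitophagy) and damaged proteins, and mice that lack it in muscle fibres lose muscle mass and strength.

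The LC3 and GABARAP proteins carry the step on which the conjugation system acts. ATG4 proteases cut each of them after a glycine, and the exposed glycine is then joined to a lipid. The last 36 coding bases of the lowest-numbered protein coding transcript of 4 of these genes, from the GENCODE M21 transcripts (mm10), are shown with that glycine codon in capitals, because these sequences give the cut that the ATG4 genes described further on are needed for. They are reference sequences of the C57BL/6 genome and were not read from these hybrid animals.
Gabarap-201 (chr11:69994489-69994524, plus strand): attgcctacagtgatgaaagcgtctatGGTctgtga
Gabarapl1-201 (chr6:129541132-129541167, plus strand): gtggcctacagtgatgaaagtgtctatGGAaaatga
Gabarapl2-201 (chr8:111952370-111952405, plus strand): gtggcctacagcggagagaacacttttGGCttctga
Map1lc3a-201 (chr2:155277602-155277637, plus strand): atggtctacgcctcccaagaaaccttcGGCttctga
In all 4 sequences 1 codon lies between the glycine and the stop codon. The end of Map1lc3b, the remaining LC3 gene of the list, is not shown, so this does not describe the whole family.

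Expected counts in the gene tables summed to 35925081 in replicate 1 and 39969380 in replicate 2, and the 43 genes took 68881 and 75642 of them. Levels are given in TPM, an abundance per transcript that is scaled by transcript length and so can be compared between genes. Mean expected counts of the members ran from 220.5 to 6884. Counting error alone came to 6.73% of the mean count of 1 library for the gene with the fewest counts. All 10 fast muscle fibre markers were detected, with a summed TPM of 100913 and 119654. Replicate 1 held more RNA of bone and cartilage markers, with a summed TPM of 282 against 16.4 over 8 genes, of granulocyte and lymphocyte markers, with 53.6 against 0.870 over 7 genes, and of osteoclast markers, with 178 against 14.1 over 5 genes. Of these markers Ibsp, Bglap, Ngp and Camp were at 0 counts in a library. In whole tissue, fewer cells of a type and less RNA per cell cannot be told apart. With 2 libraries of 1 group the smallest two-sided sign-flip p is 0.5, so no p is given, and errors are SDs over n = 2.

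All 43 genes passed the detection limit of TPM 1 in each library, where 52.3% of 22015 nuclear protein coding genes were. The median of their mean TPM was 14.0, against 9.34 for the 11514 detected nuclear protein coding genes. In both libraries 29 members reached TPM 10, 13 of them reached TPM 30, and 13 lay under TPM 10. Together they held 0.263% and 0.248% of nuclear protein coding TPM in replicates 1 and 2. The 5 highest, Pink1, Lamp1, Gabarap, Sqstm1 and Map1lc3a, made up 40.9% and 41.8% of the members' TPM. The median coefficient of variation of TPM over the libraries was 6.97%, and it was highest for Uvrag, at 25.3%. Of the 42 steps between neighbours in the order of mean TPM, 15 had libraries that did not overlap, so the exact order is unresolved for most neighbours.

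**Figure D1:**
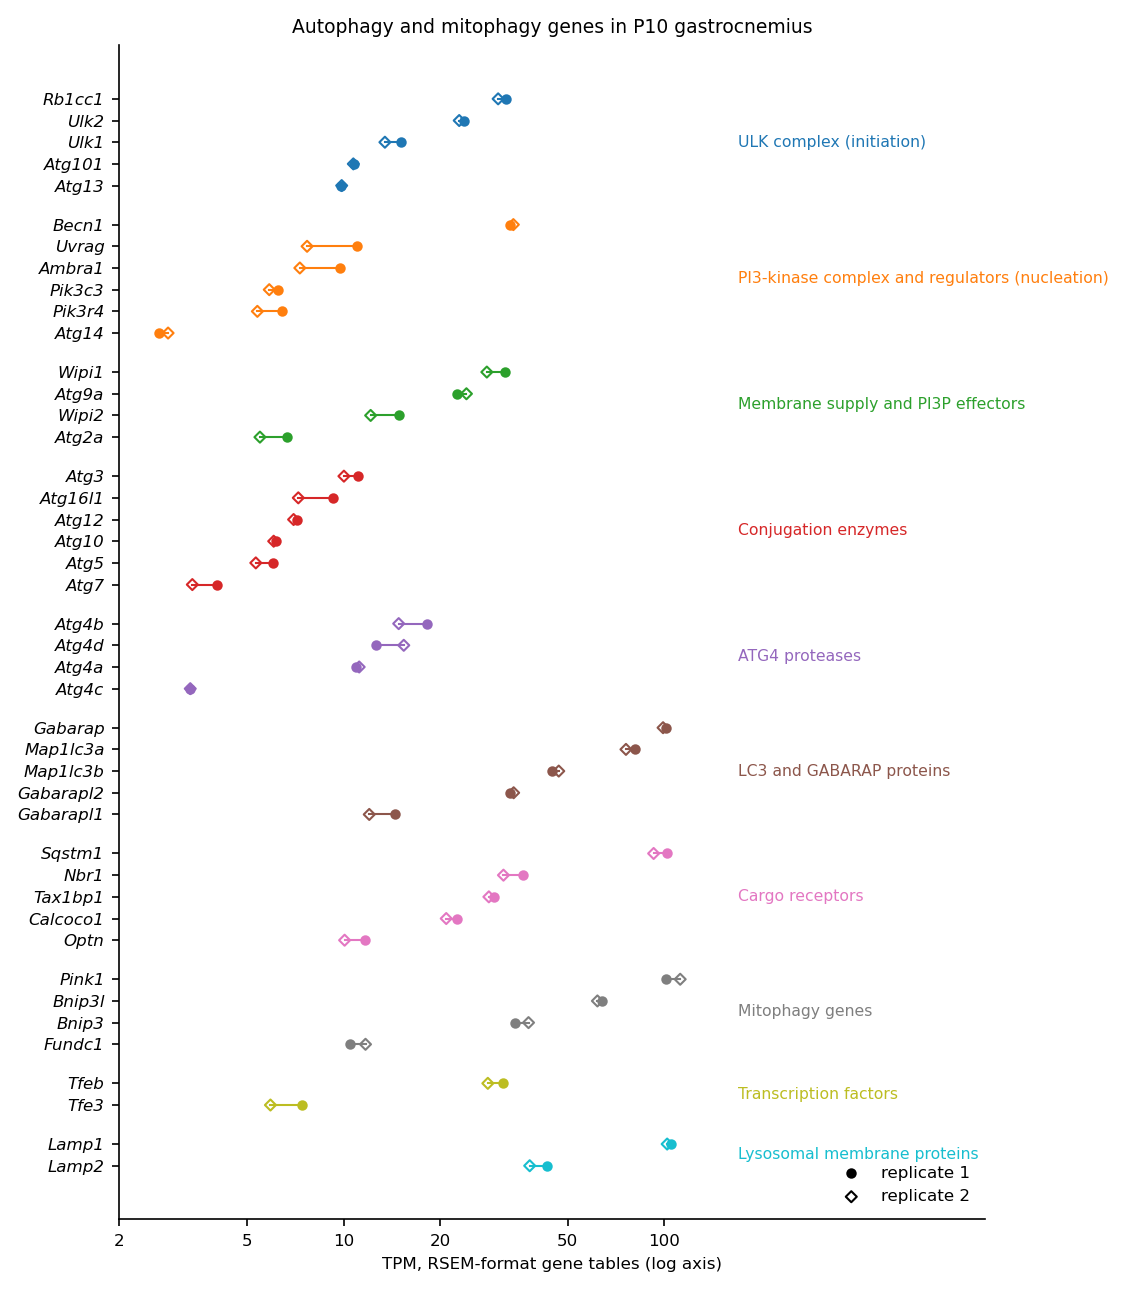
TPM of each of the 43 genes in replicate 1 (filled circle) and replicate 2 (open diamond), on a log axis, grouped by role and sorted by mean within each role; the line joins the libraries. Pink1, Lamp1, Gabarap and Sqstm1 lie near TPM 100, and Atg14, Atg4c and Atg7 lie under TPM 5.

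Early steps of the pathway were expressed at moderate levels. The ULK complex, the kinase assembly that starts autophagosome formation, had a summed TPM of 91.7 and 87.3 over 5 genes. Rb1cc1, which encodes the large scaffold FIP200, was highest at the level of the whole gene, with a TPM of 32.2 in replicate 1 and 30.3 in replicate 2. The kinase gene Ulk2 had a TPM of 23.7 and 22.9, and its paralog Ulk1 had 15.1 and 13.5. Ulk2 lay above Ulk1 in both libraries, by a log2 ratio of 0.71 ± 0.08 (SD, n = 2). Atg101 and Atg13, which encode regulatory subunits, had a mean TPM of 10.8 ± 0.0566 and 9.85 ± 0.0283.

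Within the PI3-kinase complex, which makes PI3P on the forming membrane, the levels of subunits differed widely. Becn1, the gene of the scaffold Beclin 1, was highest at the level of the whole gene, with a TPM of 33.0 and 33.8. The catalytic subunit gene Pik3c3 had a TPM of 6.24 and 5.87, and Pik3r4, which encodes its regulatory kinase partner, 6.45 and 5.39. Atg14 directs the complex to autophagosome formation and was the lowest of all 43 genes, with a TPM of 2.67 and 2.84 from 245 and 261 expected counts (chromosome 14, 47540893 to 47570649). Uvrag encodes the subunit that takes the place of ATG14 in a complex of the endosome, and had a TPM of 11.1 and 7.70. Atg14 lay below Uvrag in both libraries, at a log2 ratio of -1.74 ± 0.43, but over transcripts annotated as protein coding the ratio was 0.23 ± 0.28 in RSEM-format tables, with no called direction, and 0.37 ± 0.35 in kallisto-format tables. Ambra1, a regulator that binds Beclin 1, had a TPM of 9.77 and 7.31.

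Genes of membrane supply and of PI3P binding had a summed TPM of 75.9 and 69.8 over 4 genes. Wipi1, a PI3P-binding protein gene, had a TPM of 31.9 and 28.0, and its paralog Wipi2, which recruits the conjugation machinery, 14.9 and 12.2. The log2 ratio of Wipi1 over Wipi2 was 1.15 ± 0.07. Atg9a, the gene of a lipid scramblase on donor vesicles, had a TPM of 22.5 and 24.2, and Atg2a, a lipid transfer protein gene, 6.65 and 5.49.

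Conjugation enzymes were the role with the next to lowest share of the members' TPM, with 3.52% ± 0.188 over 6 genes. Atg3, which encodes the enzyme that hands LC3 to the lipid, was highest, at a TPM of 11.1 and 10.0. Atg7, the gene of the activating enzyme at the head of both conjugation routes, was lowest, at 4.04 and 3.38. The deposited interval of Atg7 TPM ran from 4.83 to 7.20 in replicate 1 and from 3.82 to 5.89 in replicate 2, so that the value lay outside its own interval in both libraries, as for no other member. Its posterior mean TPM was 5.39. The level of these intervals is not stated in the sources used here. Atg16l1, which anchors the complex to the membrane, had a mean TPM of 8.24 ± 1.43, and small Cajal body RNA genes inside its locus, Gm25395 and Scarna6, are annotated on the same strand with 667 and 226 expected counts in replicate 1. Atg12, the ubiquitin-like tag, had 7.08 ± 0.134, Atg10, its transfer enzyme, 6.11 ± 0.0636, and Atg5, its target, 5.68 ± 0.495.

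The LC3 and GABARAP genes were the role with the highest share of the members' TPM, 23.1% ± 0.222, from 5 genes. Gabarap led, with a TPM of 101 and 99.1 (chromosome 11, 69991143 to 69994951). Map1lc3a followed with 81.1 and 75.9, Map1lc3b with 44.7 and 46.9, Gabarapl2 with 33.1 and 33.9, and Gabarapl1 with 14.5 and 12.0. The libraries of neighbouring genes in this order did not overlap. By log2 ratio, Gabarapl1 lay below Gabarap by -2.92 ± 0.17 and Gabarapl2 below Gabarap by -1.58 ± 0.05. The position of Map1lc3a rests on the table used: its log2 ratio over Map1lc3b was 0.78 ± 0.12 in the RSEM-format gene tables, -0.03 ± 0.13 in the kallisto-format tables, and -0.65 ± 0.02 when RSEM-format protein coding transcripts alone were counted. Gabarapl2 lay above Gabarapl1 at the level of the gene (1.34 ± 0.22), and its log2 ratio over protein coding transcripts was 0.13 ± 0.22 by RSEM-format and -0.28 ± 0.06 by kallisto-format tables. Gabarap was the highest of the 5 under each of these measures. Map1lc3b shares 8400 bases of its strand with Gm20388, an overlapping annotated gene with 287 and 564 expected counts, and its own counts were not whole numbers, so its level depends on how shared reads were divided.

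The ATG4 protease genes, whose products cut the tails shown earlier, had a summed TPM of 45.0 and 44.8. Atg4b, the protease with the broadest range of substrates, had a TPM of 18.2 and 14.9. Atg4a, which prefers GABARAP proteins, had 10.9 and 11.2, and Atg4c 3.32 and 3.33. Atg4d had a TPM of 12.6 and 15.4, and was below Atg4b in replicate 1 and just above it in replicate 2 (log2 ratios -0.53 and 0.05). It was the only pair of the 20 set side by side without a called direction. A direction was called when the libraries shared a sign and their mean was larger than 1 SD. In 15 of the 20 pairs the genes stood at least 2-fold apart in both libraries.

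Among cargo receptors, which link cargo, much of it marked by ubiquitin, to LC3, Sqstm1 (the gene of p62) stood far above the rest with a TPM of 102 and 92.6 (chromosome 11, 50199366 to 50210827). Nbr1 had a TPM of 36.2 and 31.5, Tax1bp1 29.5 and 28.4, Calcoco1 22.7 and 20.9, and Optn 11.7 and 10.1. Every receptor lay below Sqstm1 in both libraries, from a log2 ratio of -1.53 ± 0.04 for Nbr1 to -3.16 ± 0.05 for Optn. At the level of the gene, the order Nbr1, Tax1bp1, Calcoco1, Optn was the same in both libraries. Over transcripts annotated as protein coding, Nbr1 lay below Tax1bp1, with a TPM of 26.6 and 26.0 against 28.5 and 27.7. By kallisto-format TPM these values were 40.4 and 35.9 against 47.8 and 42.2.

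Mitophagy genes held 17.5% and 19.4% of the members' TPM over 4 genes. Pink1, the kinase gene whose product accumulates on damaged mitochondria, had a TPM of 101 and 112 from 6042 and 7726 expected counts (chromosome 4, 138313409 to 138326307). By mean RSEM-format TPM it was the highest of all 43. In replicate 1 Lamp1 (105) and Sqstm1 (102) lay above Pink1, and Gabarap (101) had the same rounded value. By mean kallisto-format TPM Sqstm1 (167), Gabarap (155) and Lamp1 (148) lay above it (139.6 for Pink1). The deposited intervals of Pink1, 95.9 to 101 and 107 to 113, did not overlap between the libraries. Those of Ambra1, Wipi1, Wipi2 and Lamp2 did not overlap either, with the lower interval in replicate 2. These intervals are of TPM as deposited, and the direction depends on the scaling. With the TMM scaling described further on, the log2 ratio of replicate 2 over replicate 1 was -0.15 for Ambra1. It was 0.07 for Wipi1, 0.01 for Wipi2 and 0.05 for Lamp2. Bnip3l and Bnip3, which encode receptors in the outer mitochondrial membrane, had a TPM of 63.7 and 61.8, and of 34.2 and 37.7. Fundc1, a receptor gene linked to hypoxia, had 10.5 and 11.7. Pink1 exceeded Bnip3 by a log2 ratio of 1.57 ± 0.01 and Fundc1 lay below it by -1.70 ± 0.01. Bnip3l exceeded Bnip3 at the level of the gene, by 0.81 ± 0.13, and lay below it when protein coding transcripts alone were counted, by -1.70 ± 0.31 in RSEM-format and -1.28 ± 0.17 in kallisto-format tables.

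Of the transcription factors that drive lysosome and autophagy genes, Tfeb had a TPM of 31.3 and 28.2 and Tfe3 7.41 and 5.92, a log2 ratio of Tfe3 over Tfeb of -2.17 ± 0.12. The lysosomal membrane protein genes Lamp1 and Lamp2 had a TPM of 105 and 102, and of 43.1 and 38.0 (Lamp1 on chromosome 8, 13159161 to 13175338). Lamp2 was lower by a log2 ratio of -1.35 ± 0.10.

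Lamp2 has alternative last exons that change the cytoplasmic tail of the protein. The A form serves as the receptor of chaperone-mediated autophagy, the B form is known as the main form of heart and skeletal muscle, and loss of LAMP2 causes a human disease of heart and muscle with stored glycogen (Danon disease). The last 36 coding bases of the 3 protein coding forms (mm10, minus strand of chromosome X) show how the tails differ, with the last 5 amino acid codons before the stop in capitals.
Lamp2-201, LAMP2A (chrX:38405432-38405467): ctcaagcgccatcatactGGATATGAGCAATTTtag
Lamp2-202, LAMP2B (chrX:38421712-38421747): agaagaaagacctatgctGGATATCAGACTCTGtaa
Lamp2-203, LAMP2C (chrX:38402139-38402174): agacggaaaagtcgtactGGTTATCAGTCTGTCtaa
Each lies in exon 9 of its transcript, at 38405062 to 38405571 for Lamp2-201, 38419507 to 38421851 for Lamp2-202 and 38401357 to 38402281 for Lamp2-203.

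The B form was the main Lamp2 transcript. Lamp2-202 held 69.5% of Lamp2 TPM in replicate 1 and 69.0% in replicate 2. Lamp2-201, the A form, held 22.2% and 24.9%, and Lamp2-203, the C form, 2.25% and 2.39%. The ranges of the 3 forms over the libraries did not overlap. In the kallisto-format tables the shares were 69.2% ± 1.12, 20.4% ± 0.809 and 2.28% ± 0.0298 in the same order. The remaining RSEM-format TPM was on a retained intron transcript, Lamp2-204, with 2.04% ± 0.689, and a processed transcript, Lamp2-205, with 2.84% ± 0.932.

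**Figure D2:**
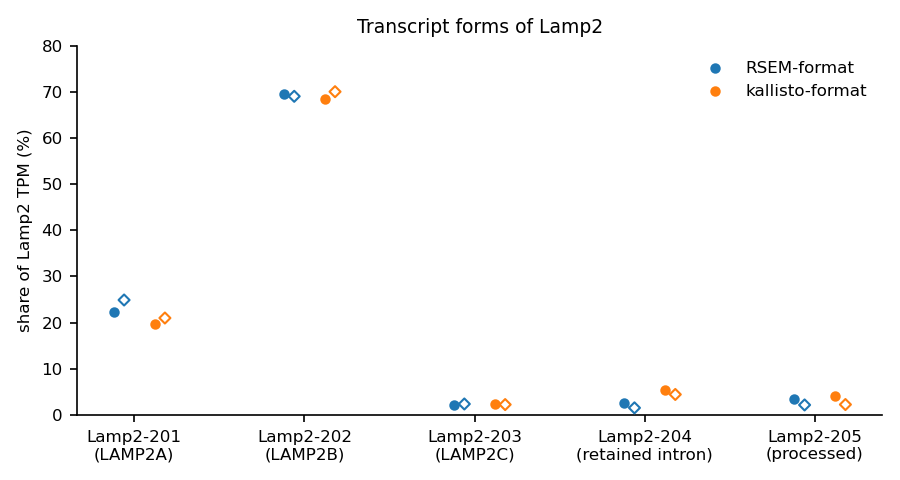
Share of Lamp2 TPM (percent) held by each annotated transcript in the RSEM-format (blue) and kallisto-format (orange) tables; filled circles are replicate 1 and open diamonds replicate 2. Lamp2-202, the B form, holds 68.4% to 70.0% in all 4 tables.

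Not all of a gene's TPM lies on transcripts annotated as protein coding. This class also holds short transcripts, such as Atg4b-203 with 513 bases and Rb1cc1-210 with 690. Whether each transcript of the class encodes the whole protein was not tested. The share of TPM on transcripts annotated as protein coding had a median over the members of 90.4% and 94.0% in the RSEM-format tables, against 89.8% and 93.8% over detected nuclear protein coding genes. Under 50% in both RSEM-format tables lay 6 members, where 6.55% of detected nuclear protein coding genes did. They were Becn1, Uvrag, Atg4d, Map1lc3a, Gabarapl2 and Bnip3l. In all 4 tables, RSEM-format and kallisto-format, 5 of them did, without Map1lc3a, beside 4.72% of genes. At the other end 17 members had at least 90% in all 4 tables, beside 38.2% of genes, among them Pink1, Lamp1, Gabarap, Map1lc3b, Bnip3 and Tfeb. Total RNA libraries also hold RNA that is still being processed, and its part in these shares was not tested.

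**Figure D3:**
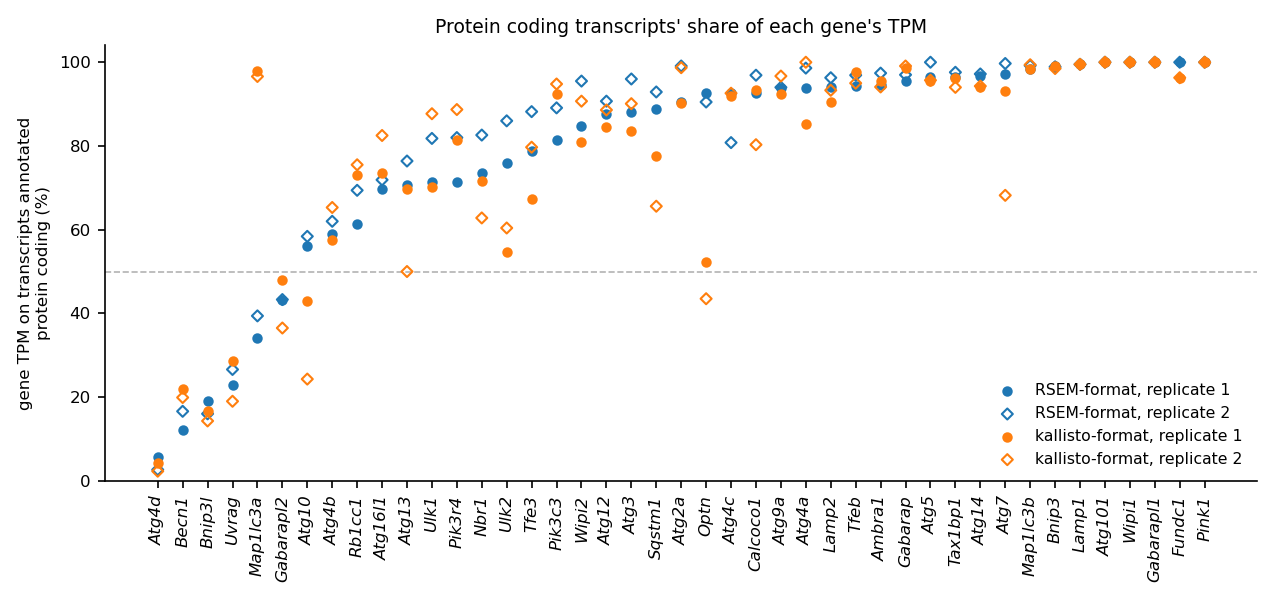
Percent of each gene's TPM on transcripts annotated as protein coding, for the 43 genes sorted by replicate 1 of the RSEM-format tables (blue) with the kallisto-format values (orange); filled circles are replicate 1, open diamonds replicate 2, and the dashed line marks 50%. Atg4d, Becn1, Bnip3l, Uvrag and Gabarapl2 lie below the line in all 4 tables, and Map1lc3a lies below it only in the RSEM-format tables.

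Atg4d had the lowest protein coding share, 5.63% in replicate 1 and 2.66% in replicate 2, and 4.36% and 2.29% in the kallisto-format tables. Its TPM on protein coding transcripts was 0.710 and 0.410, from 117 and 76.3 expected counts, so it alone among the members fell under the detection limit on this measure. Most of the remainder was on the retained intron transcripts Atg4d-203, with 56.9% ± 2.59 of the gene's TPM, and Atg4d-205, with 35.3% ± 3.80. The gene lies on chromosome 9 from 21265293 to 21277772 and overlaps Kri1 on the opposite strand over 4316 bases. Counted over protein coding transcripts, Atg4d lay below Atg4b by a log2 ratio of -4.20 ± 0.40 in RSEM-format and -4.57 ± 0.42 in kallisto-format tables.

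Bnip3l was led by processed transcripts, Bnip3l-205 with 42.5% ± 3.46 and Bnip3l-207 with 31.5% ± 2.63 of its TPM. Its protein coding share was 19.0% and 16.0%, a TPM of 12.1 and 9.88. Becn1 was led by Becn1-201, annotated as a target of nonsense-mediated decay, with 34.7% ± 5.85 in the RSEM-format tables, and by the retained intron transcript Becn1-211, with 32.8% ± 5.92, in the kallisto-format tables. The protein coding TPM of Becn1 was 4.03 and 5.62, beside 5.08 and 5.23 for Pik3c3 and 4.61 and 4.41 for Pik3r4, so that the range of Becn1 over the libraries took in both. In the kallisto-format tables it was 15.9 and 14.5, above 8.14 and 7.42 for Pik3c3 and 5.98 and 6.52 for Pik3r4. Gabarapl2 had 54.7% ± 1.86 on the retained intron transcript Gabarapl2-203 and 43.2% ± 0.0480 on the protein coding Gabarapl2-201.

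For Map1lc3a the kinds of table gave opposite pictures. The processed transcript Map1lc3a-203 held 65.8% and 56.9% of the gene's TPM in the RSEM-format tables, and 2.17% and 3.38% in the kallisto-format tables. Map1lc3a-201, the protein coding form, held 34.2% and 39.4% in the former and 97.8% and 96.6% in the latter. The libraries of a kind lay close together, and the kinds did not overlap. Which share holds cannot be settled from these tables.

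The leading transcript of a gene was the same in both RSEM-format libraries for 39 of 43 members, beside 87.9% of detected nuclear protein coding genes with more than 1 transcript. It differed for Rb1cc1, Uvrag, Ambra1 and Atg7. In all 4 tables it was the same for 28 members, beside 64.5% of such genes. For 4 members, Becn1, Atg4d, Gabarapl2 and Bnip3l, the leader was not annotated as protein coding in any of the 4 tables, beside 3.56% of such genes. Ambra1 was led by Ambra1-205 with 50.2% in replicate 1 and by Ambra1-202 with 53.2% in replicate 2, and both are protein coding. Gabarap was divided between Gabarap-202, with 54.9% ± 0.430, and Gabarap-201, with 41.4% ± 0.616, and the kallisto-format tables gave 43.8% ± 2.98 and 55.1% ± 3.28.

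The level of most members depended little on the kind of table once both were rescaled to nuclear protein coding genes. Past a 2-fold difference between the kinds, in the same direction in both libraries, there were 0 members, beside 1.16% of detected nuclear protein coding genes. Past 1.5-fold there were 2, beside 4.23%. Map1lc3b was higher in the kallisto-format tables, by a log2 ratio of 0.62, and Bnip3 was lower, by -0.65. Expected counts were whole numbers, within 0.01, in both libraries for 36 members, beside 85.3% of detected nuclear protein coding genes. The other 7, whose reads were shared with other loci by the authors' model, were Rb1cc1, Atg9a, Atg4a, Map1lc3b, Gabarapl2, Bnip3 and Bnip3l.

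Between the libraries 0 of 43 members differed by 1.5-fold in TMM-scaled CPM, the count of a gene scaled to the size of the library. The background was 15.8% among the 16790 genes whose mean count reached 10, and 4.33% among the 11759 that reached 100, a level that all members exceed. Past a smaller limit, a log2 ratio of 0.32, 7 members were higher in replicate 2, beside 13.2% of genes that reached 100 counts, and 0 were lower, beside 8.88%. By any amount 36 members were higher and 7 lower under TMM scaling, where 58.3% of 11158 nuclear protein coding genes were higher. This direction depends on the scaling: 36 were higher under DESeq2 size factors, 15 under library totals and 4 under spike-in totals. Under TMM the members' median log2 ratio of replicate 2 over replicate 1 was 0.17. It was 0.02 over nuclear protein coding genes whose mean count reached 10, and 0.05 over the 11158 that reached 100, as all members do. A scaling shifts all genes alike, so the difference of 0.15 from the genes that reached 10 does not depend on it.

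Of the 4 mitophagy genes, 3 held the highest ratios of the 43. Under TMM the log2 ratio was 0.43 for Fundc1, 0.42 for Pink1 and 0.39 for Bnip3, and that of Bnip3l, 0.11, lay below the members' median. Under spike-in totals the ratios of these 3 genes ran from 0.02 to 0.07. Theirs was the only one of the 10 roles whose summed TPM was higher in replicate 2, at 224 against 209. The lowest ratios were those of Tfe3 (-0.20), Uvrag (-0.18), Ambra1 (-0.15) and Atg7 (-0.11). Beside these differences, all 10 fast muscle fibre markers were higher in replicate 2 under TMM with a median log2 ratio of 0.49, and bone and cartilage markers were lower in 8 of 8 with a median of -5.13. Erythroid markers were lower in 6 of 6, with a summed TPM of 1269.9 and 976 and a median of -1.81. Macrophage markers had a summed TPM of 65.8 and 47.4, with 4 of 5 lower and a median of -0.31. Fibroblast markers had 7462 and 4566, with 5 of 6 lower and a median of -0.11. Adipocyte markers had 158 and 121, with 5 of 5 lower and a median of -1.34. Endothelial markers had 161 and 142, with 4 of 4 higher under TMM and a median of 0.05. The part of all these markers in the differences of the members was not tested.

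**Figure D4:**
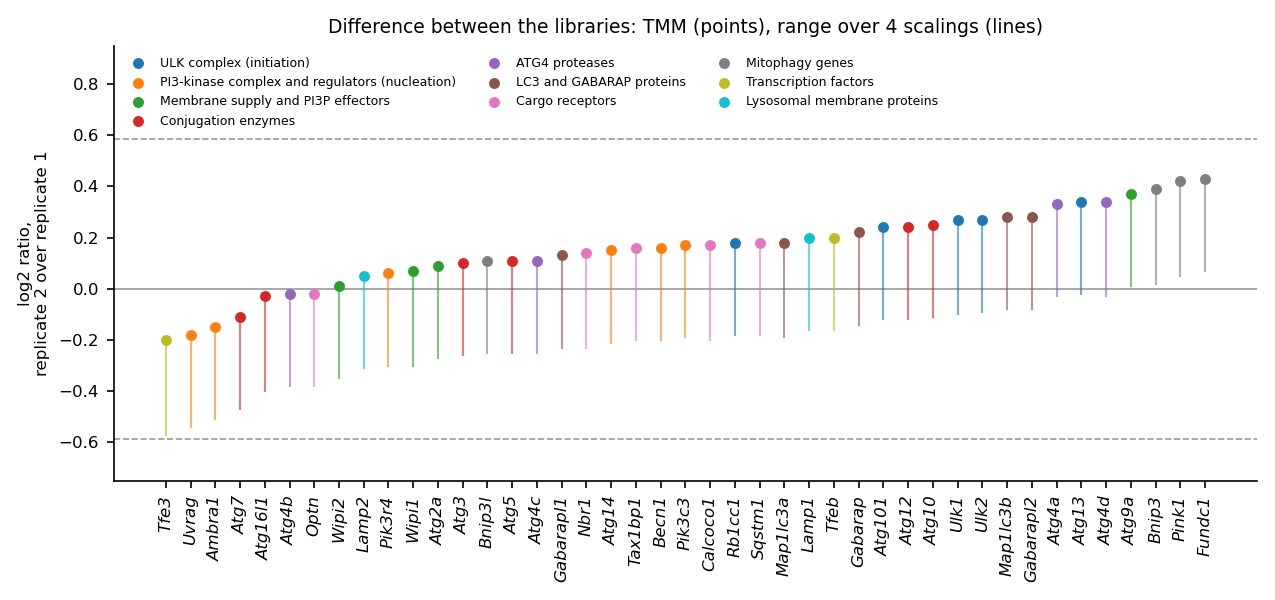
Log2 ratio of replicate 2 over replicate 1 for each of the 43 genes, sorted: points are TMM-scaled values coloured by role, lines span 4 scalings (TMM, DESeq2 size factors, library totals, spike-in totals), and dashed lines mark 1.5-fold. All points lie between -0.20 and 0.43, and Bnip3, Pink1 and Fundc1 lie at the upper end; most lines cross 0.

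Other genes of the pathway, taken as lists, were mostly detected. Of 25 other core autophagy genes 24 were detected, led by Sh3glb1, whose product binds the Beclin 1 complex, with a TPM of 137 and 143, and by the late endosome GTPase gene Rab7, with 82.5 and 87.7. In this list 0 genes were past 1.5-fold higher in replicate 2 and 1 was lower, Atg16l2, a paralog of Atg16l1, with a TPM of 4.44 and 1.98 and a log2 ratio of -0.71. The background at this limit was 2.84% of genes higher and 13.0% lower. Of 20 other mitophagy genes 18 were detected, led by Nipsnap2, a mitochondrial protein gene, with 180.3 and 208, and by Vcp, an ATPase gene, with 119.6 and 123. Cisd1, an outer membrane iron-sulphur protein gene, was past the limit and higher in replicate 2 (log2 ratio 0.63, TPM 34.5 and 44.9), and Nipsnap1 was lower (-0.85, TPM 1.20 and 0.640). The median log2 ratio of this list was 0.26 under TMM, 0.04 under library totals and -0.11 under spike-in totals. Calcoco2 had 0 expected counts in each library, a limit of 0.0835 and 0.0751 CPM (3 counts, counting error only). This gene was named after its values were seen.

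Lists at the lysosomal end were also detected. All 14 genes of ER-phagy and other selective routes were, led by Stbd1, a glycogen-binding receptor gene, with a TPM of 75.8 and 70.2, and by Retreg1, a receptor gene for endoplasmic reticulum, with 50.5 and 53.6. All 17 subunit genes of the V-ATPase, the proton pump of the lysosome, were detected, led by Atp6v1g1 with 124 and 130.2 and Atp6v0c with 84.7 and 83.8. Of 26 genes of lysosomal enzymes and membrane proteins 25 were detected, led by Psap with 197 and 187 and the cathepsin gene Ctsd with 110.1 and 115. In these 3 lists 0 genes were past 1.5-fold in either direction. Under TMM the median log2 ratio was 0.14 for selective autophagy, 0.12 for the V-ATPase and -0.10 for lysosomal genes. Of the lysosomal genes 9 of 26 were higher in replicate 2, beside 58.3% of nuclear protein coding genes that reached 100 counts. Under library totals 3 were higher, and under spike-in totals 0. Macrophage and osteoclast markers were each lower there in 4 of 5, and a link to the lysosomal list was not tested. The 9 genes known as targets of the muscle factor FoxO3, all of them members, had a median of 0.17, with 8 higher in replicate 2. The 43 members had the same median, with 36 higher. Of the 9 genes 4 were higher under library totals and 1 under spike-in totals. Under library totals and spike-in totals, which lowered the ratios of all genes alike, the median was -0.32 and -0.47 for the lysosomal list and from -0.04 to -0.24 for the other lists of this paragraph.

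TFEB and TFE3 bind the E-box CACGTG, and a longer palindrome of 10 bases around it is known as the CLEAR element of lysosomal genes. RefSeq promoter windows of GRCm38.p6, from 250 bases before to 50 after the start, were given for 36 of the 43 genes. CACGTG, the same on both strands, lay in 6 of them (16.7%), those of Atg14, Atg3, Atg5, Atg7, Bnip3 and Lamp1, and in 8.09% of 27025 windows. The windows of Atg7 and Atg14 lay wholly inside their genes, away from the outermost annotated start. That of Atg7 began at 114670846, in a plus-strand gene that starts at 114643097. That of Atg14 ended at 47568684, in a minus-strand gene whose start lies at 47570649. The 7-base form TCACGTG, searched on both strands and overlapping the E-box by its construction, lay in 4 members (11.1%) and in 4.29% of all windows. The CLEAR palindrome, which adds bases on both sides of the E-box, lay in 0 members and in 0.370% of windows. Only the full palindrome is in this count, so windows that match it in part are not. The Lamp1 window held 4 copies of CACGTG, where 6 of all 27025 windows (0.0222%) held at least 4. The Atg3 window held 2, where 0.681% held at least 2. These stretches are shown because they hold the repeated motif, in capitals.
Lamp1 (chr8:13159094-13159157, plus strand): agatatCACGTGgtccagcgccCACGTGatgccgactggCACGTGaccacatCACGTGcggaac
Atg3 (chr16:45158729-45158769, plus strand): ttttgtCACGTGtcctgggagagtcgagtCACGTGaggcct
In Lamp1 the copies began at positions -61, -45, -28 and -15 relative to the start, and in Atg3 at -94 and -71. Among the genes whose windows held the motif, the TPM was 105 and 102 for Lamp1 and 34.2 and 37.7 for Bnip3, and the mean TPM ran from 2.75 to 10.6 over Atg14, Atg7, Atg5 and Atg3. A match of letters is a description of the window and not of binding.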

How the data were processed

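Each library has RSEM-format gene and transcript tables and a kallisto-format transcript table. For the tools behind these tables, name and version were not given in the sources used. The build is mm10 with GENCODE M21, per text files deposited with the tables. Expected counts (RSEM-format) and estimated counts (kallisto-format) were deposited, per the file headers, and a model assigned reads that match more than 1 transcript. TPM, posterior mean TPM, interval bounds and the percent of a gene's TPM per transcript are the authors' deposited columns, and TPM includes spike-ins and short RNAs. The kallisto-format values were summed per gene.

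Rows that name no gene held 1.38e-05% and 5.00e-06% of counts, and spike-ins 0.720% and 0.798%. They were left out. Replicate ratios used expected counts rounded to whole numbers and log2 CPM scaled by TMM (edgeR 4.0.16, R 4.3.3), at a prior count of 0.5. Alternatives were DESeq2 1.42.0 size factors, library totals and spike-in totals. The common biological coefficient of variation, from edgeR over 16790 genes, was 0.191. Transcript classes and coordinates came from GENCODE M21 and promoter windows from RefSeq (GRCm38.p6). In a comparison between kinds of table, TPM was rescaled to nuclear protein coding genes. Intervals cover counting and assignment error only, and the differences between libraries may be technical.

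The members and lists were chosen with earlier results of these data known. All members may be named. From other lists the leading 2 by mean TPM and genes past 1.5-fold between the libraries were named, and exceptions are stated. Some items are not reported here. Transcripts named lead in a table or hold at least 20% of their gene. The ratios were tested on simulated data of 16790 genes, in which 91.5% of 200 genes changed 2-fold passed 1.5-fold and 11.74% of unchanged genes did. The simulated coefficient of variation was 0.15, below the 0.191 of these libraries, so the shares do not carry over to them. Tables and figures were made with pandas 2.3.3, numpy 2.4.6 and matplotlib 3.10.9 under Python 3.11.15.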

Additional observations from a re-analysis of the deposited data

How the results depend on the processing

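The count of 43 detected members was 43 at TPM 0.5, by kallisto-format TPM, by posterior mean TPM and without either replicate, 40 at TPM 5, and 42 over protein coding transcripts by either kind of table, a measure chosen after seeing the data. The members' share of nuclear protein coding TPM, 0.256% ± 0.0106, was 0.242% by kallisto-format TPM and ran from 0.248% to 0.263% without either replicate. Against 0 members past 1.5-fold between the libraries, 7 passed a log2 ratio of 0.32, and 1, Atg4d at a log2 ratio of -0.62, passed 1.5-fold over protein coding transcripts. The median replicate ratio, 0.17 under TMM, was -0.05 under library totals and -0.20 under spike-in totals, as all genes shifted with the scaling (nuclear protein coding median -0.19 and -0.34). Against 0 members past 2-fold between the kinds of table, 2 passed 1.5-fold, and 3 (Becn1, Map1lc3b and Optn) passed 2-fold with TPM as deposited.

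Of the 20 pairs, 19 had a called direction, and 17 to 19 under the alternatives. The mean changed sign with a called direction over protein coding transcripts for Map1lc3a over Map1lc3b (-0.65 by RSEM-format), Gabarapl2 over Gabarapl1 (-0.28 by kallisto-format), Bnip3l over Bnip3 (-1.70 and -1.28 by the respective kinds) and Atg14 over Uvrag (0.37 by kallisto-format). It changed sign with no called direction for Map1lc3a over Map1lc3b (-0.03 by kallisto-format TPM and -0.05 over its protein coding transcripts), Atg4a over Atg4b (0.09 over protein coding transcripts) and Atg14 over Uvrag (0.23 over these). The cause was not tested. The pseudocount and posterior mean TPM changed the sign of 0 pairs. A leading transcript was shared by both libraries for 39 members, 37 by kallisto-format tables and 40 over protein coding transcripts. Leaving out a replicate gives no value for the counts of called pairs and shared leading transcripts, which need both libraries. No paired analysis was possible because the samples form 1 group. The protein coding value of Atg4d rests on 117 and 76.3 expected counts.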

Other observations

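The members lay on 18 chromosomes, with 6 on chromosome 11 and 4 on the X chromosome (Atg4a, Fundc1, Tfe3 and Lamp2). Another named gene overlapped 8 members on the same strand and 16 on the opposite strand. Optn was the member whose protein coding share differed most between the kinds of table after Map1lc3a, with 92.6% and 90.5% in the RSEM-format and 52.2% and 43.5% in the kallisto-format tables. In the latter the processed transcript Optn-204 held 27.3% and 37.3% of its TPM.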
